A study of Mus musculus with 17 samples.

Results

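The 9 genes described here encode transcription factors of the macrophage and Kupffer cell (KC) lineage: *Spi1*, *Irf8*, *Runx1*, *Cebpa*, *Cebpb*, *Maf*, *Zeb2*, *Klf4* and *Tfec*. They were taken by symbol from 25124 genes listed in each of 3 tables, and all 9 were found. KCs are the resident macrophages of the liver sinusoids. The samples were 17 bulk RNA-seq libraries of sorted mouse liver KCs. TIM4+CD206+ KCs were taken from 3 untreated, tumour-free livers and from 3 tumour-bearing ones, in which cells had been injected into the portal vein 2 weeks earlier, a model of pancreatic cancer metastasis in which the methods name KPC lines. TIM4+CD206hi KCs, the minor subset that stains more brightly for the mannose receptor CD206, came from 3 livers of each of the same conditions. KCs of 3 untreated Id3f/f mice and 2 untreated Clec4fCreId3f/f mice made up the genotype comparison. Both genotypes carry floxed *Id3*, and in the second one Cre is driven by *Clec4f*, a KC gene, so that deletion is restricted to cells that express it or once did. Animal age is not given in the sources used here. The study's methods describe replicates as biological, whereas the labels number the samples without naming animals, so p-values measure the spread between these samples.

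A macrophage is specified by a small set of DNA-binding proteins that act together. PU.1, the product of *Spi1*, opens enhancers throughout the myeloid lineage, and IRF, RUNX and C/EBP proteins bind beside it. Other factors, among them MAF, ZEB2, KLF4 and the microphthalmia-family member TFEC, refine the resident or tissue-specific state. ID3 has no DNA-binding domain of its own and holds E proteins away from their recognition sequence, the E-box.

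The KC genes *Clec4f* and *Timd4*, the latter encoding TIM4, were high in all 17 libraries, at 16.11 to 19.65 and 13.76 to 15.25. The deposited values are on a log2 scale and were normalized separately in each table, so that changes were tested only within a table. For an overview of levels, a value per kilobase (kb) of transcript was obtained by subtracting the log2 of the length in kb, and its percentile among the genes tested in the same library was recorded. Within a fixed set of genes a percentile does not depend on the scale of a table. The genes ranked were those past a fixed value, however, and their number does depend on it. There were 13054 in TIM4+CD206+ KCs, 14334 in TIM4+CD206hi KCs and 12653 in the genotype comparison. The libraries of different tables may differ in other ways as well. *Spi1* and *Irf8*, whose product is an interferon regulatory factor that pairs with PU.1, lay near the top in most libraries. The median percentile of *Spi1* was 94.3 to 98.9 across the 6 groups, and that of *Irf8* was 93.8 to 96.3. *Tfec* followed at 81.5 to 88.8. *Klf4*, a zinc-finger gene, was lowest or close to lowest everywhere, with median percentiles of 18.6 to 33.9, and *Runx1* lay between 27.2 and 53.6.

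Other members took different places in the 3 tables. *Maf*, a leucine-zipper factor of resident macrophages, had median percentiles of 49.7 and 50.7 in TIM4+CD206+ KCs, 81.7 and 70.4 in TIM4+CD206hi KCs, and 79.2 and 74.7 in the genotype comparison. *Zeb2*, a zinc-finger E-box binding repressor needed for resident macrophage identity, was at 65.5 and 62.3 in TIM4+CD206+ KCs against 84.3 and 83.1 in TIM4+CD206hi KCs. *Cebpa*, which encodes a C/EBP protein of granulocyte and macrophage progenitors and of hepatocytes, went the other way, with 60.6 and 58.2 in TIM4+CD206+ KCs and 33.1 and 41.9 in TIM4+CD206hi KCs. These differences between subsets were not tested, because the tables share no normalization. The differences are drawn in the plot of percentiles by group.

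Within a table the order of the levels per kb can be read directly. In tumour-free TIM4+CD206+ KCs it ran from *Spi1* (12.4 ± 1.18, SD, n = 3) and *Irf8* (12.1 ± 0.50) through *Tfec* (9.84 ± 0.20), *Cebpa* (7.70 ± 0.54), *Zeb2* (7.65 ± 0.74), *Maf* (6.71 ± 0.17), *Cebpb* (6.40 ± 0.50) and *Runx1* (5.11 ± 0.89) to *Klf4* (3.98 ± 0.15). The samples of *Spi1* and *Irf8* overlapped, as did each neighbouring pair from *Cebpa* to *Runx1*. *Tfec* and *Klf4* were separated from their neighbours. In tumour-free TIM4+CD206hi KCs the order was *Spi1*, *Irf8*, *Tfec*, *Zeb2*, *Maf*, *Runx1*, *Cebpa*, *Cebpb* and *Klf4*, and the 1 gap without overlap was that between *Maf* at 9.86 ± 0.38 and *Runx1* at 6.53 ± 0.68. In Id3f/f KCs *Cebpb* came first at 14.6 ± 0.05, before *Spi1* at 13.3 ± 0.05, and *Cebpa* and *Maf*, at 9.20 ± 0.09 and 9.17 ± 0.21, were the 1 neighbouring pair that overlapped.

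**Figure D1:**
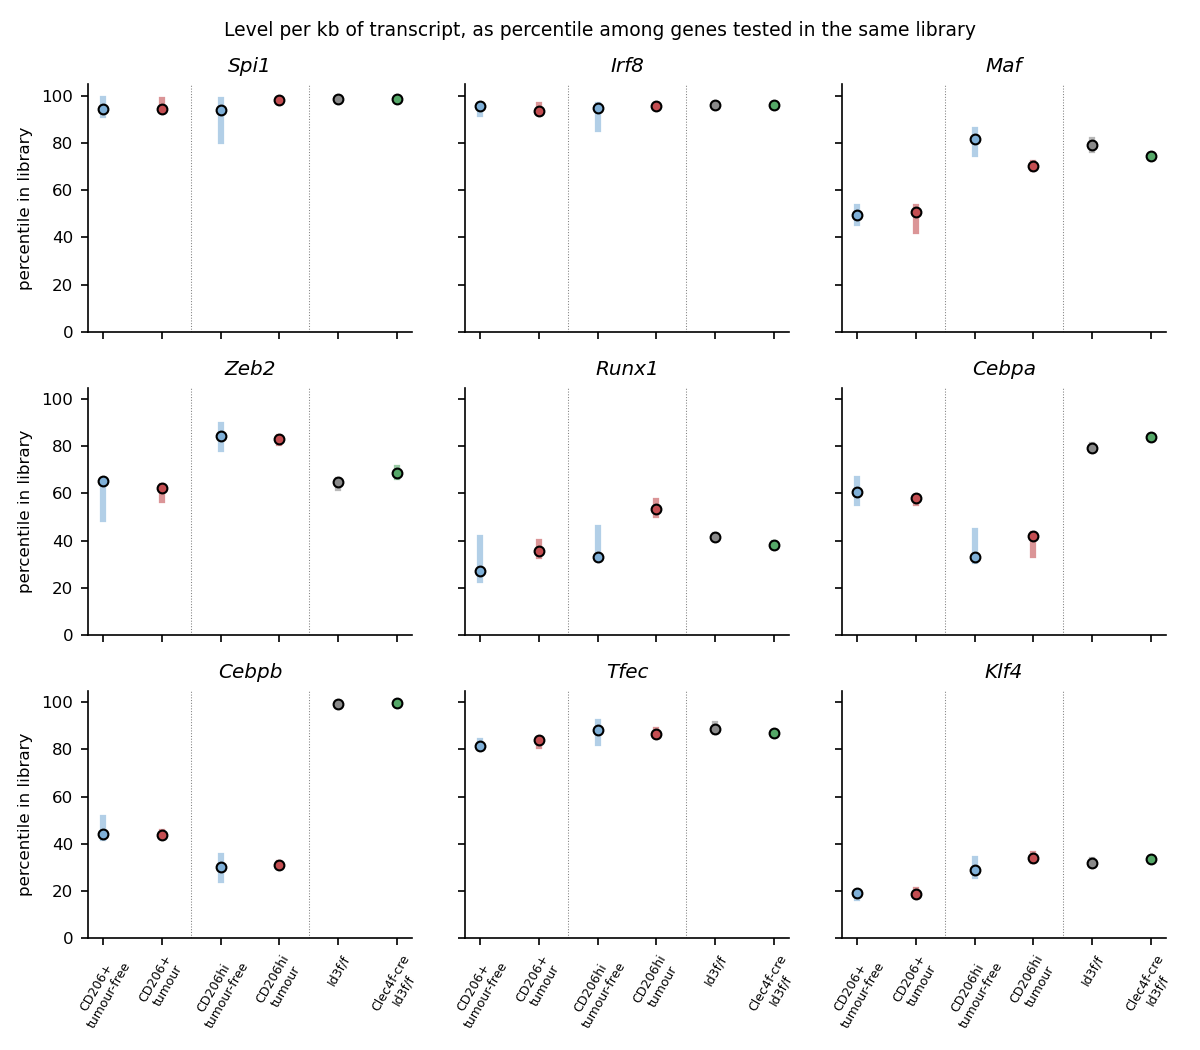
Percentile (0 to 100, vertical axis) of each gene's level per kb of transcript among the genes tested in the same library, for the 6 groups on the horizontal axis. Points are group medians, thick bars run from the lowest to the highest sample, and dotted lines separate the 3 tables. *Cebpb* lies between 24.4 and 50.9 in every library of the KC subsets and between 99.5 and 99.6 in the 5 libraries of the genotype comparison.

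*Cebpb*, the C/EBP gene induced in inflammation, had by far the largest gap between tables. Its deposited values in TIM4+CD206+ KCs were 6.76, 7.56 and 6.64 without tumour and 6.96, 6.92 and 6.78 with tumour. In TIM4+CD206hi KCs they were 5.96, 7.07 and 6.43 without tumour and 6.84, 6.85 and 6.95 with tumour. In Id3f/f KCs they were 15.17, 15.14 and 15.23, and in Clec4fCreId3f/f KCs 15.13 and 15.26. All 5 libraries of the genotype comparison thus stood above all 12 libraries of the subsets. Set against the tumour-free TIM4+CD206+ group, the Id3f/f group was higher by 8.20 on the log2 scale, with 0 of the 12219 genes compared showing a larger difference, while the median gene differed by -0.30. Against the tumour-free TIM4+CD206hi group the difference was 8.69, again with 0 genes above it and a median of -0.96. No other member differed from the same reference groups by more than 2.73, the value of *Cebpa* against TIM4+CD206hi KCs. Values set across tables rest on separate normalizations and have no test.

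**Figure D2:**
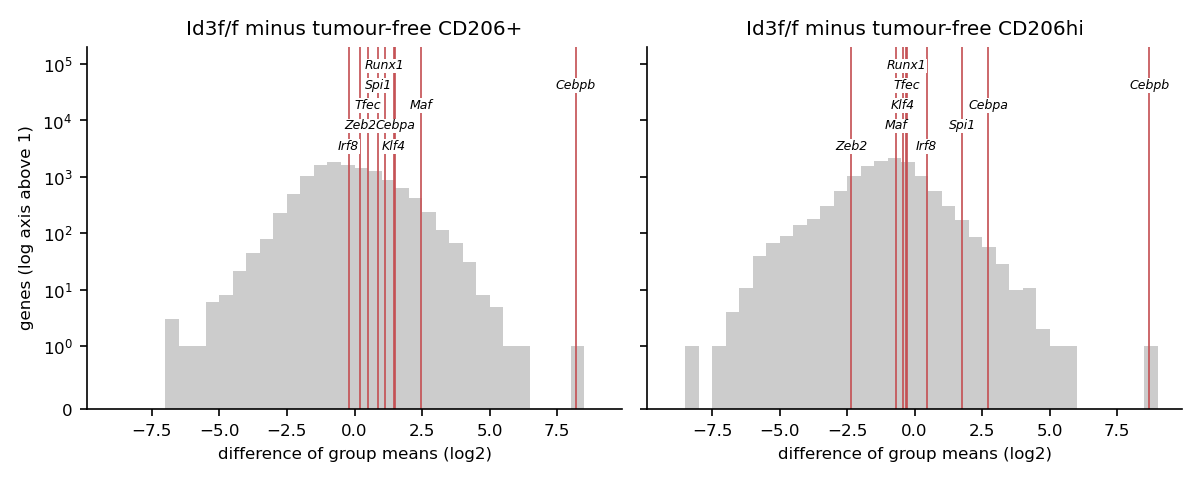
Number of genes (vertical axis, logarithmic above 1) by difference in group mean between Id3f/f KCs and the tumour-free KC subsets (horizontal axis, log2), with a red line at each of the 9 genes. *Cebpb* stands alone at 8.20 and 8.69, to the right of all other genes.

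The transcript of *Cebpb* has a GC content of 67.2%, which is above that of 99.5% of genes, and *Cebpa* has 62.6%. The median difference between Id3f/f and tumour-free TIM4+CD206+ KCs changed with GC content. It was 1.27 for the 557 genes of up to 40% GC, -0.94 for the 2371 genes between 55% and 60%, and 2.15 for the 31 genes above 65%. For the 464 genes between 60% and 65%, where *Cebpa* lies, it was -0.03, and -0.02 against TIM4+CD206hi KCs. Against TIM4+CD206hi KCs the 31 most GC-rich genes had a median of 2.04 and the 557 most GC-poor ones a median of -1.17. The part of base composition in the level of *Cebpb* was not tested. Whether reads of *Cebpb* were quantified alike in the subsets and in the genotype comparison was not tested either.

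Positions and sequences upstream of the start were taken from RefSeq on GRCm38.p6, where 7 of the 9 genes had 12 promoter entries, some with several starts. *Spi1* and *Maf* had no entry. The 250 bases before the start are shown for *Cebpa*, the 1 member called after *Id3* deletion, for *Cebpb*, which stands apart between tables, and for the distal start of *Runx1*, the entry with the most E-boxes. Each is written 5′ to 3′ on the strand of the gene, with the E-box CANNTG in capitals. The windows are chr7:35119043-35119292 (plus strand), chr2:167688665-167688914 (plus strand) and chr16:92826075-92826324 (minus strand).
Cebpa: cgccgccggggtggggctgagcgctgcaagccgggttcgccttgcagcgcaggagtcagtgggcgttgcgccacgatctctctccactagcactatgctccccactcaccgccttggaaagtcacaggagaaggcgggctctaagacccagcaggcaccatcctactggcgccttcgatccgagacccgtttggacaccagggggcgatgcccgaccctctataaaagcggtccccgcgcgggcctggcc
Cebpb: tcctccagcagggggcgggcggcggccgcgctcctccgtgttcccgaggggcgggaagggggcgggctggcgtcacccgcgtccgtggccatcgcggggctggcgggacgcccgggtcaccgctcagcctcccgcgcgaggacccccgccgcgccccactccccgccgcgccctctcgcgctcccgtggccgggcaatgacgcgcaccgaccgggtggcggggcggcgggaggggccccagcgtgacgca
Runx1: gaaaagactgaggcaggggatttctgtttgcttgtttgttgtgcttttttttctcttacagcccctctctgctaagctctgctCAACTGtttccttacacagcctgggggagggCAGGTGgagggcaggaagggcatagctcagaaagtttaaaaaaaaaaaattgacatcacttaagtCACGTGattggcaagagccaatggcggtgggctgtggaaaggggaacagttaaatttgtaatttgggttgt
The distal *Runx1* window holds 3 E-boxes, of which 1 is the CACCTG form, read here on the other strand, that ZEB proteins recognize. The windows of *Cebpa* and *Cebpb* hold 0. Among the other entries, those of *Klf4* and of the downstream start of *Irf8* hold 2 each, and the remaining ones 0. Of 32851 promoters of the same length, 66.2% hold a CANNTG and 17.2% a CACCTG on either strand, with overlapping matches counted. Every CACCTG is also a CANNTG. The *Cebpb* window is 81.6% GC, against a median of 52.4% over all promoters. These matches describe letters only.

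In TIM4+CD206+ KCs no member changed with tumour beyond the spread between samples. By limma, 0 of 9 had an adjusted p under 0.05 and 0 an unadjusted p under 0.05. Of the 13233 genes tested, 3.54% had an adjusted p under 0.05, 2.55% higher and 0.998% lower, and 17.2% an unadjusted p under 0.05. The split of 337 higher and 132 lower genes became 425 and 593 without tumour-free replicate 2, 722 and 720 with sample quality weights, and 617 and 409 when same-numbered samples were paired in a blocked fit. The log2 fold changes, tumour over tumour-free, were above 0 for 5 genes and below 0 for 4, with a median of 0.07 beside 0.02 over all genes tested. All 9 members passed the filter on low values in this and the other comparisons.

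*Spi1* was 12.48, 14.76 and 13.10 in the tumour-free TIM4+CD206+ samples and 12.92, 14.76 and 13.05 in the tumour samples. The ranges were nearly the same, and replicate 2 was the highest sample of both groups. The log2 fold change was 0.13 with an s.e. of 0.64 and a 95% confidence interval of -1.33 to 1.60. In the fit blocked on replicate number the s.e. was 0.17 and the interval -0.24 to 0.51 (adjusted p = 0.71). *Irf8* was 13.04, 13.90 and 13.92 without tumour and 13.35, 14.05 and 13.31 with tumour, and the groups overlapped. *Runx1*, the partner of PU.1 at many myeloid enhancers, was 6.98, 8.66 and 7.33 without tumour and 8.00, 8.51 and 8.13 with tumour. Its difference of 0.55 (s.e. 0.42, adjusted p = 0.586) was the largest of the 9, and tumour-free replicate 2 lay above all 3 tumour samples. Without that library the difference was 1.05, with an adjusted p of 0.0596.

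*Maf*, *Zeb2* and *Cebpa* differed by -0.03, 0.07 and -0.25 and were not called (limma adjusted p = 0.978, 0.956 and 0.748). The absence of a call does not show that a change is small. *Maf* was 9.57, 9.23 and 9.35 against 9.69, 8.90 and 9.49. *Zeb2* was 11.23, 9.99 and 11.30 against 11.05, 10.70 and 10.97. *Cebpa* was 8.97, 9.68 and 8.62 without tumour and 8.86, 8.78 and 8.89 with tumour. For each of these genes the tumour samples lay within or across the tumour-free range, and tumour-free replicate 2 was an extreme of its group. *Tfec* was 10.90, 10.59 and 10.54 against 10.86, 10.65 and 10.92. *Klf4* was 5.68, 5.65 and 5.40 against 5.70, 5.68 and 5.90 and was the 1 member whose groups did not overlap, although its highest tumour-free and lowest tumour sample both round to 5.68 (adjusted p = 0.734). Over all genes tested, 23.4% did not overlap between these groups. Same-numbered samples deviated together in this table, and a fit blocked on replicate number called 1026 genes in place of 469, still with 0 members among them.

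**Figure D3:**
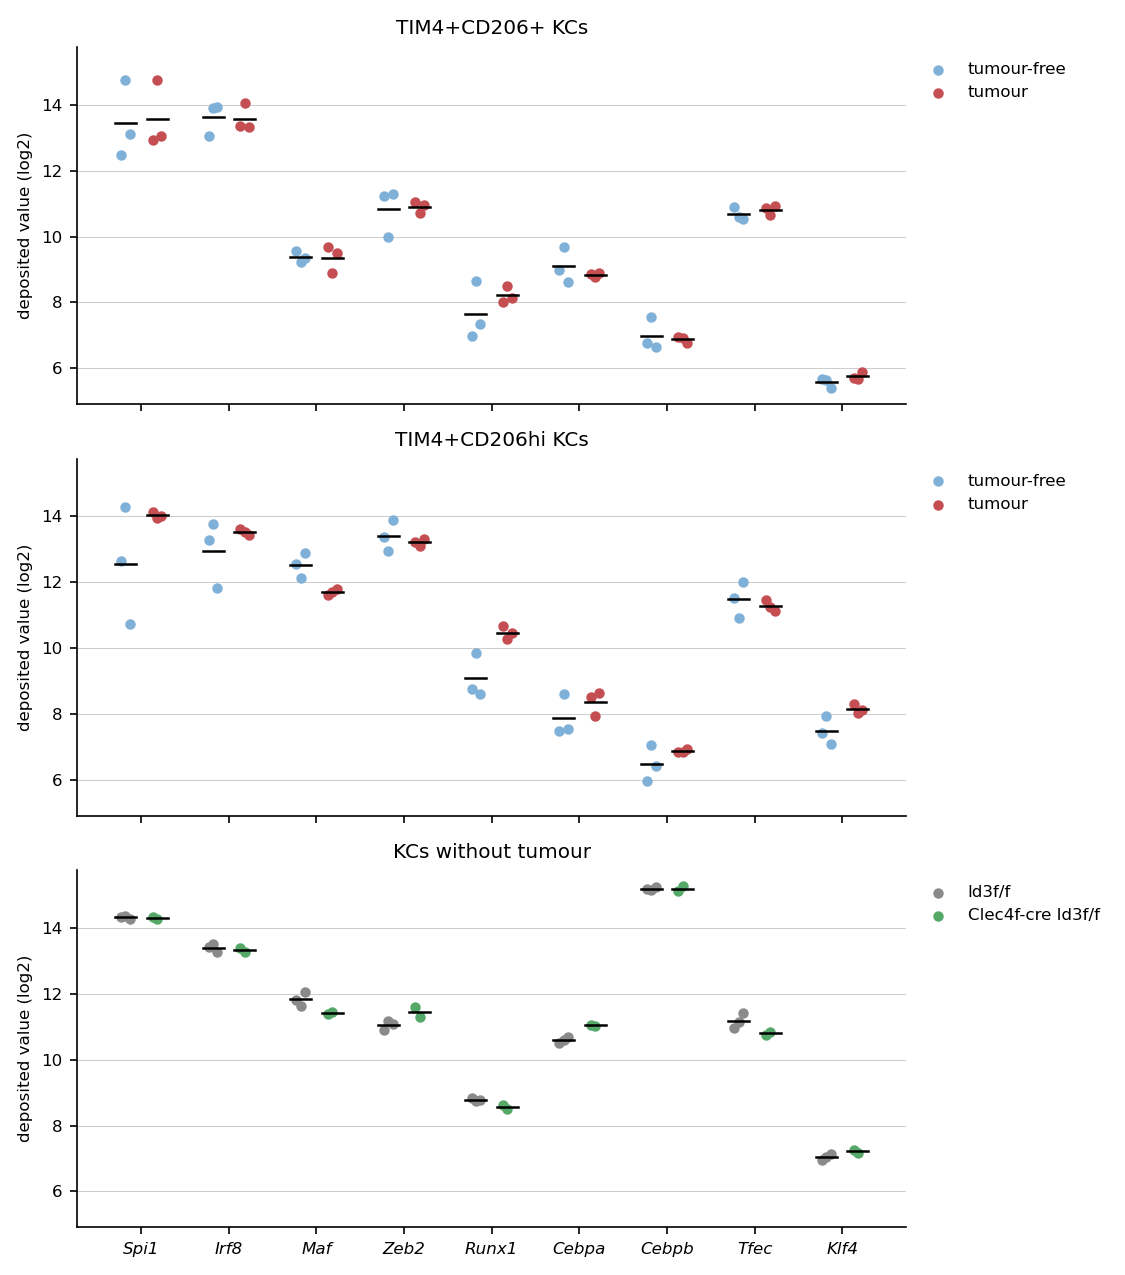
Deposited value (vertical axis, log2) of each gene in every sample, with 1 panel for each table. Points are samples and black lines are group means. *Spi1* spreads over 2.27 log2 units in tumour-free TIM4+CD206+ KCs and 3.52 in tumour-free TIM4+CD206hi KCs, but over 0.11 in Id3f/f KCs.

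In TIM4+CD206hi KCs the differences between tumour and tumour-free samples were larger, and again 0 of 9 members passed an adjusted p of 0.05. The background was 7.23% of 14561 genes called, 5.21% higher and 2.03% lower. At an unadjusted p under 0.05 there were 3 members, *Runx1*, *Maf* and *Klf4*, and these 3 were also the ones whose groups did not overlap. Over all genes tested, 21.1% had an unadjusted p under 0.05 and 30.7% did not overlap. The median log2 fold change of the 9 was 0.49, beside 0.03 over all genes.

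*Runx1* was 8.77, 9.86 and 8.60 in tumour-free and 10.66, 10.27 and 10.47 in tumour TIM4+CD206hi samples. Every tumour sample was above every tumour-free sample. The log2 fold change was 1.39 (s.e. 0.34, 95% confidence interval 0.59 to 2.20, adjusted p = 0.0568). It passed the threshold in 4 of 16 alternatives. These were median centring, quantile normalization, sample quality weights and leaving out tumour-free replicate 2. Its log2 fold change lay between 1.15 and 1.78 in all 16, with an adjusted p of up to 0.228. *Maf* was 12.56, 12.14 and 12.89 without tumour and 11.60, 11.70 and 11.78 with tumour, so that it was lower in all 3 tumour samples, by -0.84 (s.e. 0.21, 95% confidence interval -1.34 to -0.33, adjusted p = 0.066). *Maf* passed the threshold in 4 of 16 alternatives, with an adjusted p of up to 0.267 over all 16. Among the 4 was removal of trends on GC content and transcript length, a setting chosen after seeing the data. There its difference was -0.99 and the adjusted p 0.0216. *Klf4* was 7.43, 7.95 and 7.08 against 8.30, 8.03 and 8.13, a difference of 0.66 (s.e. 0.27, adjusted p = 0.217).

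For *Spi1* the comparison turned on the tumour-free samples. They were 12.64, 14.27 and 10.74, whereas the tumour samples were 14.12, 13.95 and 14.01. The highest of all 6 was a tumour-free sample, replicate 2, and the lowest was tumour-free replicate 3. The log2 fold change of 1.48 had an s.e. of 0.77 and a 95% confidence interval of -0.34 to 3.29 (adjusted p = 0.32). Without tumour-free replicate 2 it was 2.33 and passed the threshold, and without tumour-free replicate 3 it was 0.57. *Irf8* was also highest in tumour-free replicate 2 and lowest in tumour-free replicate 3, with 13.28, 13.77 and 11.81 without tumour and 13.62, 13.53 and 13.44 with tumour, and had a difference of 0.58 (adjusted p = 0.491) that fell to 0.01 without tumour-free replicate 3.

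The remaining 4 genes overlapped between the conditions. *Cebpa* was 7.47, 8.60 and 7.53 without tumour and 8.52, 7.93 and 8.63 with tumour, a difference of 0.49 (adjusted p = 0.456). *Cebpb*, with the values given above, differed by 0.39 (adjusted p = 0.48). Both differences turned to -0.09 and -0.28 once trends on GC content and length were removed. *Zeb2* was 13.36, 12.95 and 13.89 against 13.23, 13.09 and 13.31, and *Tfec* was 11.52, 10.92 and 12.00 against 11.47, 11.25 and 11.12. In all 4 genes the tumour-free samples were spread more widely than the tumour samples.

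Tumour-free replicate 3 of the TIM4+CD206hi KCs was the library in which values fell most with the GC content of the transcript, by a slope of -0.44 log2 units per 10 percentage points, compared with -0.14 to 0.148 in the other 16 libraries. It also had the lowest median value of its table, 9.03, where the other 5 had 9.20 to 9.365. Centring the libraries on their median moved the median log2 fold change over all genes from 0.03 to -0.13, and the members' changes in this subset may be read against that shift. Of the genes called, 758 were higher and 295 lower as deposited, 664 higher and 518 lower after quantile normalization, and 688 higher and 517 lower after removal of the trends on GC content and length.

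**Figure D4:**
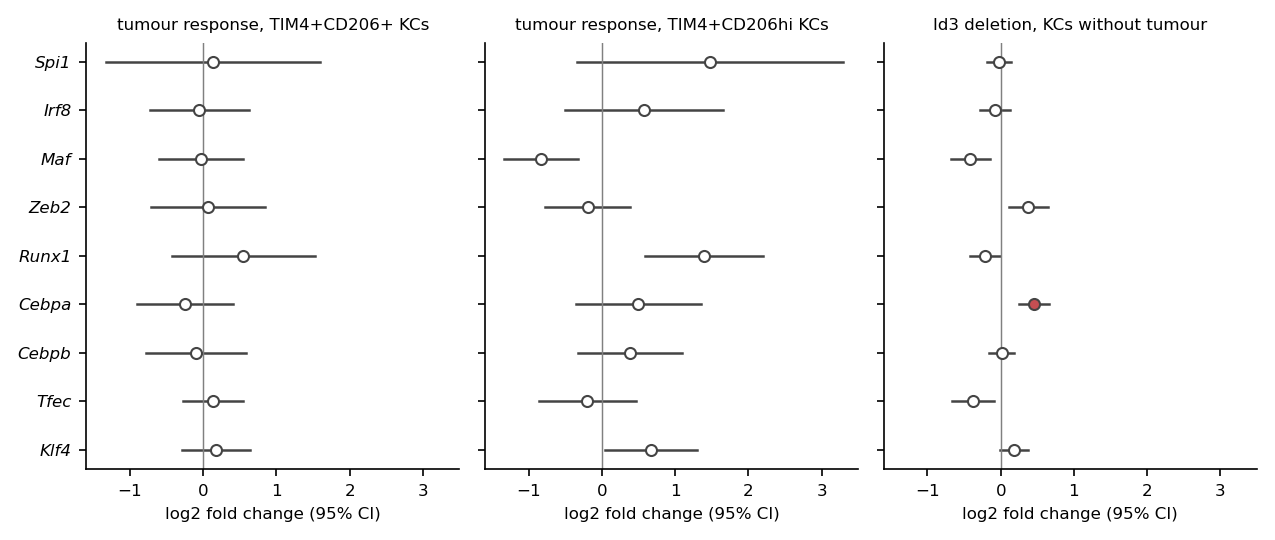
Log2 fold change (horizontal axis) of each gene in the 3 comparisons, with bars for the 95% confidence interval from limma. The filled point is the 1 member with an adjusted p under 0.05, *Cebpa* after *Id3* deletion at 0.45, and open points are the others.

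The tumour comparisons of the subsets stand side by side as follows. *Runx1* differed by 0.55 in TIM4+CD206+ and 1.39 in TIM4+CD206hi KCs, *Klf4* by 0.18 and 0.66, *Maf* by -0.03 and -0.84, *Spi1* by 0.13 and 1.48, and *Cebpa* by -0.25 and 0.49. Whether the subsets differ in their response was not tested, since their values were normalized apart.

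Markers of other cells moved with tumour in both subsets. Of all genes tested, 2.55% were higher and 0.998% lower in TIM4+CD206+ KCs, and 5.21% higher and 2.03% lower in TIM4+CD206hi KCs. A marker low without tumour could be tested through the tumour samples alone and then be called only higher. Of 8 epithelial or tumour cell markers tested, 8 were higher in each subset, with their summed level rising from between 10.75 and 11.72 to between 15.09 and 15.31 in TIM4+CD206+ KCs and from between 10.72 and 11.25 to between 15.55 and 15.66 in TIM4+CD206hi KCs. Monocyte markers were higher for 3 of 8 in each subset, at a summed level of 13.73 to 15.16 without and 15.34 to 15.56 with tumour in TIM4+CD206+ KCs, and of 14.51 to 14.98 and 15.30 to 15.49 in TIM4+CD206hi KCs. Neutrophil markers were higher for 4 of 8 and 3 of 8, from 13.01 to 14.06 up to 14.96 to 15.09, and from 12.50 to 13.72 up to 13.98 to 14.61. Hepatocyte markers were lower for 5 of 8 and 6 of 8, from 14.21 to 14.67 down to 12.55 to 13.07, and from 14.11 to 14.76 down to 12.52 to 12.96. Endothelial markers were also lower for 3 of 8 in TIM4+CD206hi KCs, from 17.51 to 18.12 down to 16.84 to 17.08. B cell markers were lower for 3 of 4 tested and 2 of 5 tested. The KC markers summed to 21.62 to 22.10 without and 21.36 to 21.49 with tumour in TIM4+CD206+ KCs. In TIM4+CD206hi KCs they summed to 20.76 to 21.04 without and 20.60 to 20.68 with tumour. The sums of all tumour samples were thus below those of all tumour-free samples in each subset. Of 14 KC markers, 3 were called lower with tumour in TIM4+CD206+ KCs and 0 in TIM4+CD206hi KCs. The 3 became 0 with median centring and 0 without any 1 sample other than tumour-free replicate 2, without which there were 8. With the replicate block, TIM4+CD206+ KCs had 5 of 8 monocyte and 7 of 8 neutrophil markers higher, 8 of 8 hepatocyte markers lower, and 1 endothelial marker higher and 2 lower. Dendritic cell and T or NK cell lists gave 0 calls in both subsets, and of 8 stellate cell markers 0 and 2 were lower. *Cldn4* was below the floor for testing in both subsets, and *Pax5* in TIM4+CD206+ KCs. *Ighm* and *Trac* were not analysed here. Myeloid and other cells also use some of the members, *Spi1*, *Runx1*, *Klf4* or *Cebpa* among them. Endothelial markers in TIM4+CD206+ KCs gave 0 calls of 8, and summed to 13.58 to 14.68 without and 13.78 to 14.02 with tumour. The part of other cells in the values of any member, *Maf* and *Zeb2* included, was not tested. In bulk libraries, fewer cells of a type and less RNA per cell cannot be told apart.

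Several transcription factors of other lineages rose with tumour. Of 21 tested in TIM4+CD206hi KCs, 8 were higher and 0 lower, led by *Elf3* (5.55 ± 0.29 to 9.89 ± 0.11, SD, n = 3), *Pdx1* and *Ehf*, with adjusted p of 7.57e-05, 8.67e-05 and 1.00e-04. ELF3 and EHF are epithelial ETS factors, the same DNA-binding family as PU.1, and PDX1 is the pancreatic homeodomain factor. In TIM4+CD206+ KCs 3 of 13 were higher and 0 lower, and they were *Elf3*, *Ehf* and *Pdx1* again. Of all genes tested, 5.21% were higher in TIM4+CD206hi and 2.55% in TIM4+CD206+ KCs. A gene was tested if 3 samples reached the floor. One that is low without tumour could thus enter through the tumour samples alone and be called only higher. The call of *Pdx1* there held in 6 of 15 alternatives. The replicate block left the same 3 higher there and added *Tcf7*, a T cell factor, as lower by -0.99 (adjusted p = 0.0297).

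The nearest relatives of the members gave few calls without the replicate block. Among 32 genes of the same families, such as other IRF, KLF and C/EBP genes, 0 were called in TIM4+CD206+ KCs, with a median log2 fold change of -0.15. In TIM4+CD206hi KCs 0 were higher and 3 lower, which were *Klf7* at -0.85 (adjusted p = 0.0205), *Irf2* at -0.74 (adjusted p = 0.035) and *Irf7*, the interferon-inducible amplifier of type I interferon, at -0.82 (adjusted p = 0.0438). Each of these 3 calls was lost when any 1 of the tumour samples was left out, and also with the replicate block. The calls of *Klf7*, *Irf2* and *Irf7* held in 11, 9 and 6 of 16 alternatives. With the block *Runx3*, a relative of *Runx1*, was called in TIM4+CD206hi KCs, higher by 1.59 (adjusted p = 0.0331). Other KC factors, a list with *Id3*, *Nr1h3* and *Spic*, gave 0 calls of 11 and of 12 tested. Of 15 genes known as targets of PU.1 and its partners, 1 was lower in TIM4+CD206+ KCs, the colony-stimulating factor receptor *Csf1r* at -0.94 (adjusted p = 0.0344), and 0 passed in TIM4+CD206hi KCs. The *Csf1r* call held in 9 of 16 alternatives and was lost when libraries were centred on their median, when trends on GC content and length were removed, and without any 1 sample other than tumour-free replicate 2. With the replicate block more genes of these lists were called in TIM4+CD206+ KCs. Of the 32 relatives 0 were higher and 4 lower, *Irf1* at -0.92, *Irf2* at -0.77, *Irf7* at -0.95 and *Elf4*, an ETS gene, at -0.72, with adjusted p of 0.0108 to 0.0297. Of the 11 other KC factors *Bhlhe40* was higher by 1.05 and the retinoid X receptor gene *Rxra* lower by -0.74 (adjusted p = 0.0273 and 0.016). Of the 15 targets *Itgam*, the CD11b integrin, and *Msr1* were higher by 1.07 and 0.63, and *Csf1r* was lower (adjusted p = 0.00344, 0.0357 and 0.032).

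In the genotype comparison *Id3* itself was 12.58, 12.46 and 12.82 in Id3f/f KCs and 9.83 and 9.82 in Clec4fCreId3f/f KCs. It was lower by -2.80 (s.e. 0.11, adjusted p = 1.40e-06), and the samples of the floxed genotype without Cre were all higher. *Clec4f*, the gene that drives Cre, was lower by -1.52 (adjusted p = 1.80e-06). The X-inactivation transcript *Xist* was 6.33 to 6.38 in Id3f/f and 9.76 to 9.84 in Clec4fCreId3f/f KCs, and the Y-linked *Ddx3y* was 9.43 to 9.46 and at most 7.01. Sex-linked expression therefore differed between the genotypes, and its part in the members' differences cannot be told apart from that of the genotype.

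Of the 9 members, *Cebpa* was the 1 called after *Id3* deletion. It was 10.50, 10.60 and 10.68 in Id3f/f and 11.06 and 11.03 in Clec4fCreId3f/f KCs, so that both deleted samples were above all 3 controls. The log2 fold change was 0.45 (s.e. 0.09, 95% confidence interval 0.24 to 0.66, adjusted p = 0.0237). The background was 6.44% of 12833 genes called, 3.08% higher and 3.37% lower. Without any 1 of Id3f/f replicate 1, Id3f/f replicate 2 and both Clec4fCreId3f/f samples in turn the call was lost, with adjusted p up to 0.295. It held in 11 of 15 alternatives, and over all 15 the log2 fold change was between 0.34 and 0.50. Fits with a block on replicate number are among those in which it held. In them Id3f/f replicate 3 has no partner and adds nothing to the difference. At an unadjusted p under 0.05 there were 5 members, *Cebpa*, *Maf*, *Zeb2*, *Tfec* and *Runx1*, where 23.6% of all genes reached it.

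The groups did not overlap for 6 members, where 41.9% of all genes did not overlap with 3 samples against 2. *Maf* was 11.82, 11.64 and 12.05 in Id3f/f and 11.39 and 11.45 in Clec4fCreId3f/f KCs, lower by -0.42 (s.e. 0.12, adjusted p = 0.068). *Zeb2* was 10.91, 11.16 and 11.09 against 11.59 and 11.28, higher by 0.38 (adjusted p = 0.0865). *Tfec* was 10.96, 11.15 and 11.42 against 10.75 and 10.84, a difference of -0.38 (adjusted p = 0.111). None of these 3 passed the adjusted threshold. *Runx1* was 8.84, 8.73 and 8.78 against 8.62 and 8.51, and *Klf4* was 6.95, 7.03 and 7.14 against 7.27 and 7.18. Their differences were -0.21 (adjusted p = 0.199) and 0.18 (adjusted p = 0.24).

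PU.1 and its IRF partner showed the smallest differences beside *Cebpb*. *Spi1* was 14.33, 14.36 and 14.26 in Id3f/f and 14.33 and 14.27 in Clec4fCreId3f/f KCs, a difference of -0.02 with a 95% confidence interval of -0.19 to 0.15. *Irf8* was 13.43, 13.50 and 13.28 against 13.39 and 13.27, a difference of -0.07 with an interval of -0.28 to 0.13. *Cebpb* differed by 0.01, with an interval of -0.16 to 0.18. The interval of *Irf8* was the widest of these 3. The transformation draws differences towards 0, more so for genes with few reads.

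Some relatives and targets were called between the genotypes, beside the 6.44% of all genes given above. Among the family relatives 3 were lower, *Irf7* at -0.47 (adjusted p = 0.0133), *Irf1* at -0.53 (adjusted p = 0.0167) and *Klf6* at -0.40 (adjusted p = 0.0229). Among 15 targets 2 were higher and 3 lower. *Csf1r*, the receptor on which macrophage survival depends, was higher by 0.50 (adjusted p = 0.0101) and the NADPH oxidase subunit *Ncf1* by 0.47 (adjusted p = 0.014). The lysosomal glycoprotein *Cd68*, the cytokine *Il1b* and the scavenger receptor *Msr1* were lower, by -0.56, -0.64 and -0.37. Of 11 other KC factors 2 were lower, *Id3* and *Id1*, the latter by -0.72 (adjusted p = 0.00844), and 0 of 11 factors of other lineages were called. Apart from *Id3*, each of the genes named in this paragraph lost its call without Clec4fCreId3f/f replicate 1 and without replicate 2, settings that leave 1 deleted sample.

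Between the genotypes, epithelial markers gave 0 calls of 5 tested at a summed level of 8.57 to 8.69 in Id3f/f and 8.56 to 8.70 in Clec4fCreId3f/f KCs, and hepatocyte, neutrophil, B cell, dendritic, T or NK and stellate cell lists gave 0 calls. Of 6 monocyte markers tested 1 was lower, at a summed level of 13.57 to 13.83 and 12.76 to 12.87. Of 8 endothelial markers 1 was higher and 2 lower. Among 14 KC markers 4 were higher and 5 lower, with summed levels of 20.80 to 20.83 and 20.69 to 20.71.

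The members also differed in how closely samples of a group resembled each other. *Spi1* had a pooled within-group SD of 1.10 in TIM4+CD206+ KCs and 1.25 in TIM4+CD206hi KCs, above 99.1% and 99.5% of the genes tested. In the genotype comparison its SD was 0.05, below the median of 0.09. *Irf8* and *Runx1* were also variable in the subsets, with SDs of 0.46 and 0.65 in TIM4+CD206+ and 0.72 and 0.50 in TIM4+CD206hi KCs, against medians of 0.28 and 0.30 over all genes. *Klf4* and *Tfec* were among the steadier genes of TIM4+CD206+ KCs, at 0.14 and 0.17. With the trends on GC content and length removed, the range of *Spi1* over the tumour-free TIM4+CD206hi samples went from 3.52 to 2.55.

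**Figure D5:**
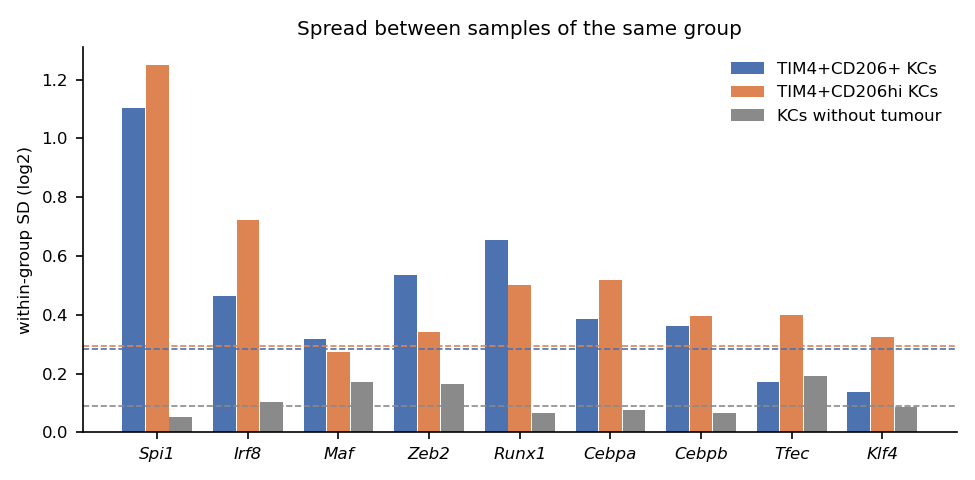
Pooled within-group SD (vertical axis, log2, bars from 0) of each gene in the 3 tables. Dashed lines mark the median SD over all genes tested in the table of the same colour. *Spi1* reaches 1.10 and 1.25 in the KC subsets and 0.05 in the genotype comparison.

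After each gene was centred on its mean within a table, the genes most like each member over the 17 samples were sought among 12222 genes tested in all 3 tables. *Akt1s1* and *Maf1* followed *Spi1*, both with r = 0.99, and *Pias4* and *Sqstm1* followed *Irf8*, both with r = 0.98. *Tspan13* and *Pspc1* followed *Runx1*, at r = 0.97 and 0.96, and *Panx1* and *Lipt2* followed *Cebpb*, both at r = 0.96. For *Maf* they were *Cldnd1* and *Txndc12* (r = 0.94 and 0.93), for *Zeb2* *Arl6ip5* and *Itch* (0.93 and 0.92), for *Cebpa* *Itsn1* and *Il6ra* (both 0.93), for *Klf4* *Gcfc2* and *Phlda1* (0.93 and 0.92), and for *Tfec* *Rgs2* and *Lgals8* (0.93 and 0.87). The points share libraries, their conditions and their base composition, and the correlations are a description with no test.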

How the data were processed

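RNA-seq of 17 sorted mouse KC samples was analysed. The authors amplified cDNA with SMART-Seq v4, which does not mark strand, so that reads of a gene and of an antisense partner such as that of *Zeb2* cannot be told apart. Per the labels, reads were aligned to mm10 with STAR 2.7.10a and counted with HTSeq, and DESeq2 was used. The study's methods name GRCm39 or mm10 without saying which samples were aligned to which. The deposited files hold log2 values, normalized separately in 3 tables, with the features of a regularized log transformation, although their names and columns read counts and TPM. A count test was therefore not used. Read depth is unknown, and so are counting intervals.

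Genes with a value of at least log2 of 10 in 3 samples (2 in the *Id3* comparison) entered limma 3.58.1 (R 4.3.3) with the variance allowed to follow the mean. P-values were adjusted over all genes by Benjamini-Hochberg, and the fit was tested on simulated data first. The main fits hold no block. The correlation of deviations of same-numbered samples was 0.35, 0.56 and 0.15 in TIM4+CD206+ KCs. The labels do not say that same-numbered samples are paired, and these correlations do not establish it. Transcript length and GC content are those of the longest coding GENCODE transcript of GRCm38, known for 97.5% of genes. Same-group samples held no identical profiles. Python 3.11.15 with pandas 2.3.3 and matplotlib 3.10.9 was used for tables and plots.

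Named are the 9 members, per list the genes (up to 3) that had the smallest adjusted p, below 0.05, with no overlap between groups, *Id3*, *Clec4f*, sex-linked genes and the 2 genes most like each member. *Ncf1*, *Msr1* and *Klf6*, beyond that limit, genes called with the block alone and genes below the floor or not analysed were named after their values were seen. The members and lists were chosen with earlier results of these data known. A result for 1 listed gene is not reported here.

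Alternatives were median centring, quantile normalization, no filter, a mean of at least log2 of 50, no trend, robust estimation, sample weights, a block on replicate number, leaving out single samples and, chosen after seeing the data, removal of trends on GC content and length by splines with 5 degrees of freedom, with and without the block.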

Additional observations from a re-analysis of the deposited data

How the results depend on the processing

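In TIM4+CD206+ KCs 0 of 9 members were called in all 16 alternatives. In TIM4+CD206hi KCs, where 0 were called as reported, 1 was called with median centring and 1 with quantile normalization (*Runx1* in both), 7 with sample weights, 1 with GC and length trends removed and 1 with these and the replicate block (*Maf* in both), and 0 to 4 with single samples left out. The 4, without tumour-free replicate 2, were *Spi1*, *Maf*, *Runx1* and *Klf4*. After *Id3* deletion, where 1 was called, there were 2 with a mean of at least log2 of 50, 3 with sample weights, 3 with the replicate block (*Maf*, *Zeb2* and *Cebpa*), 2 with GC and length trends removed, 5 with these and the block, and 0 to 3 with single samples left out, with 3 without Id3f/f replicate 3 and 0 without any other sample. Same-numbered samples did not deviate together in these 2 tables, with correlations of -0.05, -0.13 and -0.05 and of -0.07 and -0.10. The block called 909 genes and 0 members in TIM4+CD206hi KCs. After *Id3* deletion the block leaves Id3f/f replicate 3 without a partner, so that the spread is estimated from little and the blocked calls are uncertain.

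Of 423 values of single members under an alternative, 357 kept direction and side of the threshold, 27 came to pass it, 4 no longer did, and 35 changed sign. In TIM4+CD206+ KCs sample weights turned *Maf* to 0.05, *Zeb2* to -0.23, *Cebpa* to 0.07 and *Cebpb* to 0.12. Removal of GC and length trends, with or without the block, turned *Irf8* to 0.03, *Zeb2* to -0.15 and *Tfec* to -0.05 there, and *Cebpa* to -0.09 and *Cebpb* to -0.28 in TIM4+CD206hi KCs. After *Id3* deletion quantile normalization turned *Spi1* to 0.10 and *Irf8* to 0.03, and median centring turned *Cebpb* to -0.02. With single samples left out, the ranges in TIM4+CD206+ KCs were -0.46 to 0.79 for *Spi1*, -0.19 to 0.21 for *Maf*, -0.34 to 0.10 for *Irf8*, -0.36 to 0.30 for *Zeb2*, -0.48 to 0.05 for *Cebpa* and -0.27 to 0.19 for *Cebpb*. In TIM4+CD206hi KCs they were -0.42 to 0.05 for *Zeb2* and -0.48 to 0.06 for *Tfec*, and after *Id3* deletion -0.05 to 0.01 for *Spi1* and -0.06 to 0.08 for *Cebpb*.

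Numbers of genes called moved by over 1.5 times. In TIM4+CD206+ KCs the 469 became 1442 with sample weights, 915 with the block and trends removed, and 228 to 1018 with single samples left out. The 1053 of TIM4+CD206hi KCs became 600 with the stricter mean, 9013 with sample weights, whose estimation stopped before convergence in 1 comparison, and 579 to 3653 with samples left out. After *Id3* deletion the 827 became 477 with no filter, 1867 with sample weights, 2089 with the block, 2102 with the block and trends removed, and 17 to 1850 with samples left out. There the 395 higher and 432 lower genes became 328 and 550 with median centring. With 1 deleted sample left, that sample is assumed to vary like the controls. The cause of these changes was not tested.

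Per kb of transcript, the distance from the highest to the lowest member was 5.64 and 6.71 in TIM4+CD206hi KCs without and with tumour, in place of 6.91 and 7.15 as deposited, and 9.15 and 8.98 in the Id3f/f and Clec4fCreId3f/f groups, in place of 8.14 and 7.97.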
